A study of Mus musculus with 30 samples.

Results

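IL-10 positive and IL-10 negative cells sorted from Th2 cultures were compared through 6 of the series' 30 RNA-seq libraries, chosen by their titles: 3 libraries of the IL-10 positive compartment and 3 of the IL-10 negative compartment, numbered 7, 8 and 9 in each. The mice were of the C57BL/6 strain and carried a Foxp3-GFP reporter together with an IL-10 Thy1.1 reporter, in which the surface protein Thy1.1 marks cells that express IL-10. Naive CD4+ CD44- GFP- T cells were sorted from them and activated with 2.5 ug/ml soluble anti-CD3. Irradiated spleen cells without CD4 T cells served as feeders, 6 for each T cell. Recombinant IL-4 at 20 ng/ml was the polarising cytokine of the Th2 cultures. At 72 hours, live (7-AAD-) TCRβ+ CD4+ GFP- cells were sorted again by Thy1.1, and 2000 cells were lysed per library. All 6 libraries therefore share the strain, both reporters, the IL-4, the anti-CD3 and the removal of Foxp3-GFP+ cells, and by the labels they differ in the reporter's compartment. The protocol text writes Thy1.1+ for both compartments, so the titles were followed. The other 24 libraries were 3 positive and 3 negative for each of the Th1, Th17, pTh17 and Tr1 cultures. Those cultures received other cytokines in place of IL-4. Their levels and differences are given below to show where Th2 differed. All 30 libraries entered the same fit, so the other 24 also bear on the filter, scaling and p-values of the Th2 comparison. The labels do not say that the 3 libraries of a compartment came from separate cultures or mice, so the p-values rest on library-to-library spread that could be technical.

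IL-10 is a cytokine that dampens immune responses, largely by acting on antigen-presenting cells and on T cells themselves. Th2 cells arise when IL-4 signals through its receptor and STAT6 to raise GATA3, which opens the linked Il4, Il13 and Il5 genes, and they serve in defence against worms and in allergy. Il10 was first described as a product of Th2 clones, and in helper T cells its transcription is known to draw on c-MAF, encoded by Maf, and on Blimp-1, encoded by Prdm1.

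The 6 tables held 9872948 to 11850597 expected counts each. Genes with a count numbered 15148 to 15672 in negative and 14841 to 14972 in positive libraries. Correlations of log CPM (counts scaled to a common library total) between replicates ran from 0.9891 to 0.9918. Beyond counting error, replicates varied with a coefficient of variation (edgeR's estimate) of 5.46% among positive and 8.01% among negative libraries. T cell identity markers stood at a summed 4437 to 4674 CPM in positive and 4485 to 4728 CPM in negative libraries, and 6 of 8 were not called. The 6 erythroid markers summed to at most 1.07 CPM, the 6 NK cell markers to at most 1.65, the 9 mast cell, basophil and eosinophil markers to at most 3.76 and the 13 myeloid and dendritic cell markers to at most 9.24 CPM in any of the 6 libraries. The myeloid markers Lyz2, S100a8 and S100a9 were at 0 in all 6. No tested myeloid or NK cell marker was called, and 1 of 3 tested mast cell, basophil and eosinophil markers was lower, a call lost without negative replicate 8 or any positive replicate. Without positive replicate 7 or negative replicate 9, 1 myeloid marker was called lower. B cell markers summed to 48.8 to 64.9 CPM in positive and 41.4 to 45.0 in negative libraries, most of it from the class II gene H2-Ab1, at 40.9 ± 5.62 CPM in positive and 25.8 ± 0.148 CPM in negative libraries (SD, n = 3). H2-Ab1 and H2-Eb1 were called higher, and the other 8 tested B cell markers were not called. The CD8 genes summed to 17.01 to 18.79 CPM in positive and 9.41 to 12.2 in negative libraries, both genes being called higher, Cd8a with an adjusted p of 0.0533 without negative replicate 8. Rn45s, the ribosomal RNA precursor, took 6.48% to 7.97% of the scaled counts in positive and 9.46% to 10.5% in negative libraries. The part of these differences in the results below was not tested, but leaving Rn45s out of the counts gave 1633 genes higher and 1154 lower, against 1555 and 1197 with it.

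Did Il10 transcript follow the reporter, and how much remained in the negative compartment? Il10 lies on chromosome 1, 131019845 to 131024970 of mm10. Il10 stood at 69.02, 58.1 and 71.3 CPM in negative replicates 7, 8 and 9 and at 833, 750.1 and 861 CPM in the positive ones. Every positive library lay more than 10 times above every negative one. The log2 fold change of positive over negative was 3.62 ± 0.11 (SE), a 12.3-fold difference (edgeR's quasi-likelihood test, Benjamini-Hochberg adjusted p = 1.06e-25). Thy1, which encodes both the reporter's protein and the cells' own Thy1, stood at 244, 250.4 and 266 CPM in negative and 944, 879 and 891 CPM in positive libraries, a log2 fold change of 1.84 ± 0.07. In bulk libraries, fewer cells with a transcript and less transcript per cell cannot be told apart, and this holds for every level below.

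The Th2 negative compartment still held Il10 transcript. Per length, Il10 stood at 92.99 ± 7.56 TPM there (SD, n = 3), 1576th among the 23420 genes of the tables, and at 1152 ± 99.5 TPM, 143rd, in the positive compartment. Mean Il10 in the negative libraries was 8.12% of the mean in the positive libraries, beside 7.09% in Th17, 1.51% in both Th1 and pTh17 and 1.00% in Tr1. In CPM the Th2 negative libraries held more Il10 than the other 4 negative groups, which averaged 5.73 in Th1, 1.66 in Th17, 0.779 in pTh17 and 0.474 in Tr1. That difference, Th2 negative minus the mean of the other negative groups, was 5.54 ± 0.13 on the log2 scale (SE; edgeR, adjusted p = 9.76e-31). All 3 Th2 negative libraries also lay above every positive library of Th17, pTh17 and Tr1. The Th2 difference between compartments minus the mean difference in the other cultures was -1.97 ± 0.19 (edgeR, adjusted p = 1.18e-10). Unlike cultures enter that mean. In Th17 the negative share of 7.09% was near the 8.12% of Th2. The pTh17 and Tr1 negative groups held only 19 and 9 counts of Il10 over their 3 libraries.

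**Figure D1:**
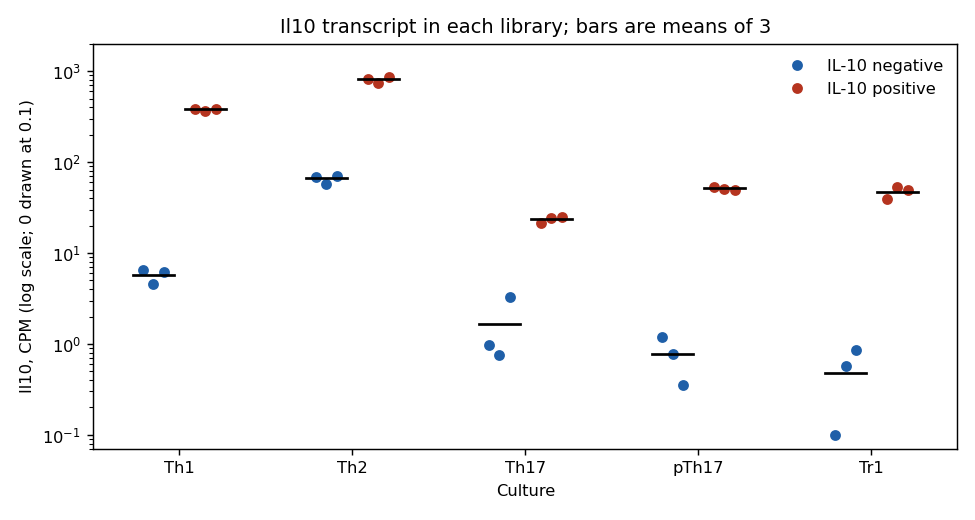
Il10 in CPM (log axis) in each of the 30 libraries, by culture and compartment; points are libraries, black bars are means of 3, and a library at 0 is drawn at 0.1. The 3 Th2 IL-10 negative libraries sit between 58.1 and 71.3 CPM, above every other negative library.

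Of 12611 genes tested, 2752 (21.8%) were called between the Th2 compartments at an adjusted p under 0.05. Higher in positive cells were 1555 genes (12.3%), and lower were 1197 (9.49%). Most differences were small: the median size among called genes was 0.483 on the log2 scale, and 317 genes were at least 2-fold higher and 243 at least 2-fold lower. At least 8-fold differences were called in 25 genes higher and 29 lower. The 3 positive and 3 negative libraries did not overlap for 4885 genes (38.7%), higher in 20.9% and lower in 17.8% of those tested, 2669 of them called. The share called rose with level, from 5.30% of genes under 1 CPM to 55.6% of genes at 1000 CPM or above, and of the 60 called genes in that top class 1 differed by 2-fold or more. That gene was Myo6, which encodes an actin-based motor and stood at 1816, 1658 and 2047 CPM in negative and 818, 764 and 855 CPM in positive libraries.

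**Figure D2:**
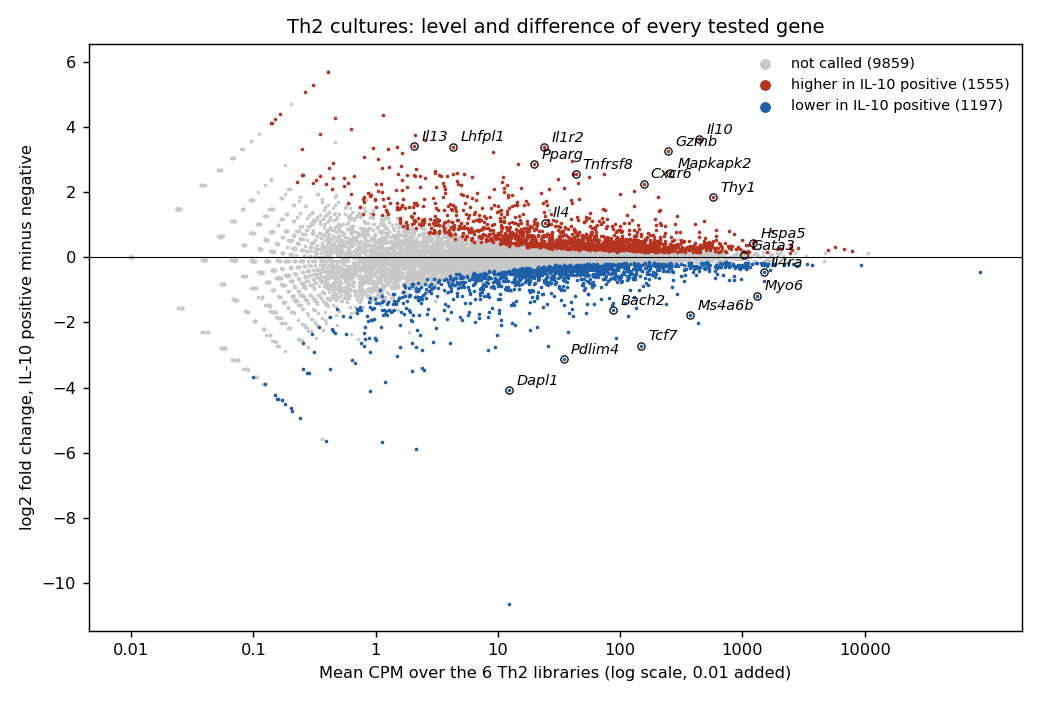
Each tested gene by its mean CPM over the 6 Th2 libraries (log axis, 0.01 added) and its log2 fold change, positive minus negative; red points were called higher (1555), blue called lower (1197) and grey not called, and circled genes are named in the text. Il10 and Gzmb stand out among abundant genes that were higher, Tcf7 and Ms4a6b among those that were lower.

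All 6 tested of 9 listed type 2 cytokine genes were called higher, beside 12.3% of all genes tested. Their median log2 fold change was 2.88, beside 0.007 over all genes tested. DESeq2 called 3 of them (Il4, Il24 and Il5) and gave no adjusted p for the low-count genes Il13, Areg and Il3, thinning left 4 of 4 tested genes called, and 5 were called with no filter on low counts. None of the 6 had a Th2 difference called above or below the mean difference of the other 4 cultures. Il4, the cytokine that drives Th2 fate, stood at 16.1, 15.6 and 15.6 CPM in negative and 33.3, 34.5 and 30.5 CPM in positive libraries. Its log2 fold change was 1.06 ± 0.15 (edgeR, adjusted p = 4.16e-06), the smallest of the 6, with no overlap between compartments. Il24, an IL-10 family cytokine, rose from 8.65, 7.28 and 8.38 to 28.5, 19.8 and 24.9 CPM. The effector cytokines Il5 and Il13, which act on eosinophils and on epithelium and mucus, were low throughout. Il13 stood at 0.486, 0.0970 and 0.423 CPM in negative and 3.76, 3.55 and 3.94 CPM in positive libraries, a log2 fold change of 3.41 ± 0.54. Il5 stood at 0.292, 0.194 and 0.254 and 2.76, 3.06 and 2.33 CPM, a log2 fold change of 3.38 ± 0.65. Areg, which encodes the growth factor amphiregulin, stood at 0.214 ± 0.0344 and 2.30 ± 0.701 CPM. Il3, a growth factor for mast cells and basophils, stood at 0.162 ± 0.202 and 0.919 ± 0.471 CPM (adjusted p = 0.0216). The call of Il3 was lost without positive replicate 7 or 9, without negative replicate 8 or 9 and with no filter on low counts (adjusted p from 0.062 to 0.131), and its log2 fold change of 2.44 ± 0.78 was 3.93 without negative replicate 7 and 1.85 without negative replicate 9. In TPM, Il10 was the most abundant of these cytokines in the positive cells, at 1152 ± 99.5 against 117 ± 5.38 for Il4, 41.1 ± 7.69 for Il24, 5.79 ± 0.395 for Il13 and 3.21 ± 0.384 for Il5.

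Il4, Il13 and Il5 lie together on chromosome 11, from 53612460 to 53725103 of mm10, with the DNA repair gene Rad50 between Il13 and Il5. All 4 protein-coding genes of that stretch were called higher, Rad50 by 0.31 ± 0.09, a call lost after thinning and without negative or positive replicate 7 (adjusted p from 0.0623 to 0.0943). The 240 bases ending 11 bases before the RefSeq start of Il4 and of Il13 are printed because these linked genes moved together and because c-MAF is known to act at the Il4 promoter. Both are from RefSeq's GRCm38.p6, on the minus strand, at chr11:53618676-53618915 for Il4 and chr11:53634713-53634952 for Il13. Capitals mark TGCTGA, the half-site of MAF proteins, and AGATAA, a form of the GATA element, on either strand.
Il4: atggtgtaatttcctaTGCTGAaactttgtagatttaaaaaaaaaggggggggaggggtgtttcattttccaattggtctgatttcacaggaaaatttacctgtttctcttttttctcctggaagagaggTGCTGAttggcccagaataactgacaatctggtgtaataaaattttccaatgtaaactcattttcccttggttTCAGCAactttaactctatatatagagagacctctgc
Il13: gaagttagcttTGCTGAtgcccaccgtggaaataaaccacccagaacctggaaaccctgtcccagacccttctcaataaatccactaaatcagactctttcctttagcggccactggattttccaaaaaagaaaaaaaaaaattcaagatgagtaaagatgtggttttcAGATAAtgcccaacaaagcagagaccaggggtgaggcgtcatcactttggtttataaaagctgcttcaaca
Il4 had 3 matches to the MAF half-site within 250 bases and Il13 had 1, together with 1 match to the GATA element. The half-site was present in 4 of 8 type 2 cytokine promoters found in the table (50%; Il4, Il13, Il31 and Areg), against 15.8% of all 27025 promoters of that length. AGATAA was present in 3 of 8 (37.5%; Il13, Il3 and Csf2), against 10.2% of all. The 8 were taken by list, and Il31 and Csf2 were not among the genes tested between compartments. Il5, of the same locus, had no match to either. The matches describe letters only, and binding was not measured.

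The Th2 regulators moved less uniformly than the cytokines. Of 21 listed genes of Th2 regulation and IL-4 signalling, 7 were called higher and 6 lower, with a median of 0.05. Over all genes tested those shares were 12.3% and 9.49%. Gata3, the defining regulator, stood at 1020.3, 962 and 1049.6 CPM in negative and 1068, 1003 and 1075 CPM in positive libraries. Its compartments overlapped, and its log2 fold change was 0.05 ± 0.07 (adjusted p = 0.675). Pparg, a lipid-sensing nuclear receptor that serves Th2 cells, stood at 5.15, 3.30 and 5.84 and 36.7, 29.3 and 37.97 CPM, a log2 fold change of 2.85 ± 0.21. Il4ra, the chain of the IL-4 receptor that binds IL-4, stood at 1778, 1667 and 1733 CPM in negative libraries and was lower in positive ones, at 1295, 1215 and 1258 CPM (-0.46 ± 0.05). Stat6, which carries the IL-4 signal, was lower, at -0.22 ± 0.06, and the receptor's partner chain Il2rg was not called (-0.06 ± 0.05). The feedback gene Cish, induced by cytokine signals, was lower at -0.27 ± 0.07. Its log2 fold changes in the other cultures were 2.33 in Th1, 2.21 in Th17, 0.19 in pTh17 and 1.89 in Tr1 (Th2 minus their mean -1.92 ± 0.10; adjusted p = 3.58e-18). The AP-1 family genes Batf and Junb were higher by 0.49 ± 0.08 and 0.30 ± 0.06. Nfatc2 was higher by 0.36 ± 0.09 and Nfatc1, its relative in calcium signalling, lower, at -0.35 ± 0.08. Il4i1, an enzyme that degrades amino acids, was rare, at 0.162 ± 0.202 and 1.42 ± 0.376 CPM, and its log2 fold change of 3.08 ± 0.69 moved to 4.56 without negative replicate 7, 2.48 without negative replicate 9 and 2.33 after thinning.

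Among the receptors that mark Th2 cells, 5 of 9 tested genes were called higher and 1 lower, beside 12.3% and 9.49% of all genes. Against the mean difference of the other cultures, 0 were called above and 2 below. Ccr8, a chemokine receptor of skin-homing Th2 cells, stood at 67.9, 64.3 and 65.5 CPM in negative and 166, 158 and 164 CPM in positive libraries (1.30 ± 0.11). Tnfrsf8, which encodes CD30, rose from 14.97, 10.7 and 12.3 to 77.2, 63.7 and 79.97 CPM (2.54 ± 0.16). Il1rl1, the receptor for IL-33, stood at 29.3, 21.9 and 29.6 and 50.6, 38.3 and 66.98 CPM, the positive libraries spreading more widely than the negative ones. Cysltr1, a receptor for cysteinyl leukotrienes, was higher by 0.95 ± 0.15, and the eotaxin receptor Ccr3 was rare, at 0.162 ± 0.148 and 1.72 ± 0.619 CPM, its log2 fold change of 3.34 ± 0.70 moving to 4.02 without negative replicate 8 and 2.74 without negative replicate 9. Ccr4, another chemokine receptor of Th2 cells, was lower, at 315, 311 and 296 CPM in negative and 225, 236 and 223 CPM in positive libraries (-0.43 ± 0.10). 

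**Figure D3:**
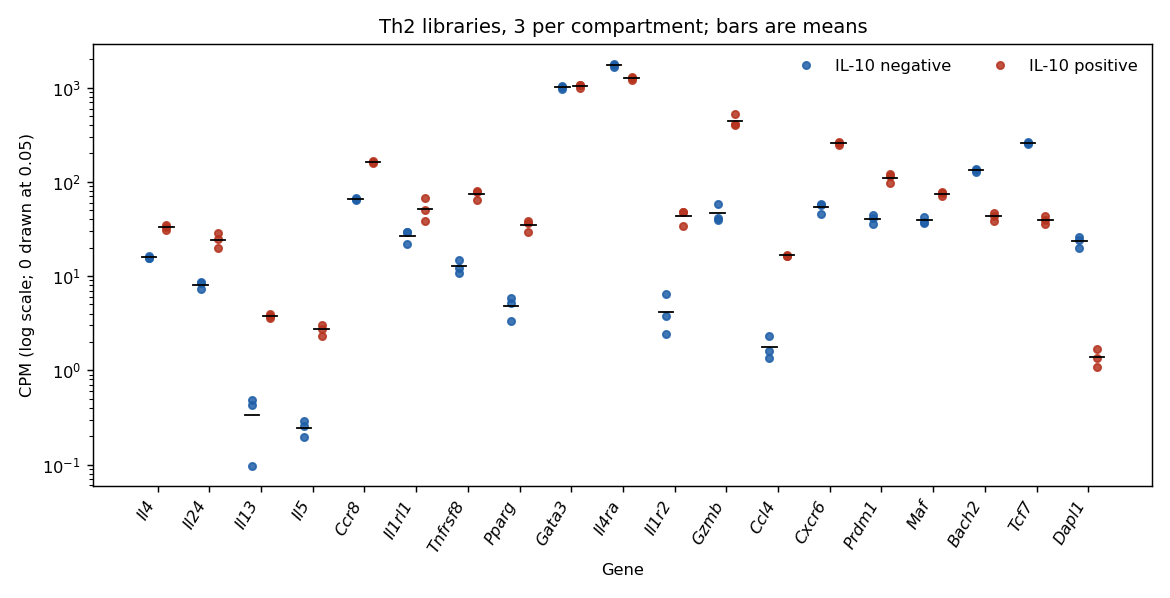
CPM (log axis) of 19 genes in the 3 negative (blue) and 3 positive (red) Th2 libraries, with black bars for means. Gata3 overlaps between compartments, while Il4, Ccr8, Pparg and Gzmb lie higher and Bach2, Tcf7 and Dapl1 lower in every positive library.

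Known regulators of Il10 were called higher for 6 and lower for 3 of 14 listed genes, beside 12.3% and 9.49% of all genes. Maf stood at 42.8, 36.5 and 37.5 CPM in negative and 76.1, 71.6 and 77.8 CPM in positive libraries (0.95 ± 0.10; edgeR, adjusted p = 2.21e-09). Prdm1, which encodes Blimp-1, stood at 44.1, 35.8 and 41.2 and 119.8, 96.1 and 116 CPM (1.46 ± 0.14). Bach2, a repressor that holds back effector genes, moved the other way, at 134, 136 and 126 CPM in negative and 38.8, 46.9 and 42.98 CPM in positive libraries (-1.62 ± 0.07). The groups did not overlap for these 3 genes. Bhlhe40, a repressor of Il10, was higher, by 0.39 ± 0.09, less than in the other cultures (Th2 minus their mean -1.15 ± 0.10; adjusted p = 5.44e-12). Id2, which restrains E proteins, was higher by 0.49 ± 0.08 and Ets1 lower, at -0.20 ± 0.05. Ikzf3 was higher by 0.31 ± 0.10, a call lost without negative replicate 9 (0.26, adjusted p = 0.0915). Irf4 was lower, at -0.22 ± 0.07, and that call was lost without negative replicate 7 or 9 or positive replicate 7 or 8 (adjusted p from 0.0543 to 0.111). Ahr, the aryl hydrocarbon receptor, stood at 3.21, 1.07 and 0.931 CPM in negative and 2.00, 2.97 and 1.52 CPM in positive libraries and was not called, but it was called without negative replicate 7 (1.12, adjusted p = 0.0244).

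The gene next to Il10 was among those that rose most. Mapkapk2, the kinase MK2 that acts below p38 and prolongs the life of cytokine transcripts, lies on chromosome 1, 131053700 to 131097871. It stood at 73.8, 66.3 and 80.7 CPM in negative and 450.5, 421 and 449 CPM in positive libraries, a log2 fold change of 2.58 ± 0.08 (adjusted p = 1.3e-25). Of the 12 protein-coding genes within 250 kb of Il10, a window chosen after values were seen, 8 were tested, 3 of them called higher (Il10, Mapkapk2 and Il24) and 2 lower (Rassf5 at -0.34 ± 0.06 and Ikbke at -0.53 ± 0.06). Il19, an IL-10 relative between Il24 and Il10, was not called (-0.40 ± 0.41). In Th2 the Mapkapk2 difference exceeded the mean of the other cultures by 1.00 ± 0.09 (adjusted p = 8.75e-12), whose own values were 3.06 in Th1, 0.51 in Th17, 1.57 in pTh17 and 1.16 in Tr1.

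IL-10 positive Th2 cells also carried more transcripts of several Th1 and cytotoxic genes. Of 17 listed Th1 genes, 10 were called higher and 4 lower, beside 12.3% and 9.49% of all genes tested. The list's median was 0.56, and without positive replicate 8 the 4 called lower became 2. Tbx21, the Th1 regulator T-bet, stood at 67.4, 90.5 and 66.1 CPM in negative and 99.8, 129 and 101 CPM in positive libraries (0.56 ± 0.12), with no overlap. Ifng, its cytokine target, was low in both, at 1.55, 1.75 and 1.35 and 2.25, 3.55 and 4.39 CPM (1.12 ± 0.25). The IL-12 receptor chains Il12rb1 and Il12rb2 were higher by 0.74 ± 0.06 and 1.02 ± 0.08. The interferon gamma receptor chains split, Ifngr1 being higher by 0.32 ± 0.05 and Ifngr2 lower, at -0.85 ± 0.08. Eomes, a relative of T-bet, was lower at 1.81 ± 0.497 against 0.395 ± 0.167 CPM, a call lost without negative replicate 8 or positive replicate 8 or 9 (adjusted p from 0.069 to 0.0826).

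Of 13 tested genes of cytotoxic granules, 6 were called higher, beside 12.3% of all genes tested, and the other 7 were not called. However, 2 were called lower without positive replicate 8 and 1 without negative replicate 7, after thinning or with a replicate block. Gzmb, which encodes granzyme B, a protease that kills target cells, stood at 58.5, 39.1 and 41.5 CPM in negative and 523, 407 and 399 CPM in positive libraries (3.26 ± 0.11). Nkg7, a granule membrane protein, stood at 22.2, 21.9 and 20.8 and 133, 132 and 114 CPM (2.54 ± 0.09). Gzma was higher by 1.14 ± 0.17 and the pore-forming Prf1, rare at 5.57 ± 0.686 CPM in positive libraries, by 1.85 ± 0.20. Srgn, whose product packs the granules, was abundant and higher by 0.28 ± 0.07. Gzmc was higher by 1.78 ± 0.36, but not called after counts were thinned to the lowest total (1.24, adjusted p = 0.0687). The CD8 genes rose beside these genes, from a summed 10.6 to 18.2 CPM on average, while NK cell markers summed to 0.812 and 0.867 CPM and the part of other cells was not tested. Chemokines of effector T cells rose as well: 3 of 7 tested were higher, Ccl4 from 1.36, 2.33 and 1.61 to 16.4, 16.9 and 16.4 CPM, Ccl3 from 0.380 ± 0.206 to 4.61 ± 0.856 and Ccl5 from 1.01 ± 0.371 to 3.28 ± 1.06 CPM, and the other 4 were not called.

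Chemokine and IL-1 receptors were prominent among the higher genes. Cxcr6, which guides effector cells into tissues, stood at 57.1, 45.8 and 57.9 CPM in negative and 263, 247 and 261 CPM in positive libraries (2.26 ± 0.11). The chemokine receptors Ccr1, Ccr2 and Xcr1 were higher by 2.56 ± 0.27, 1.34 ± 0.14 and 1.57 ± 0.30. Over 19 tested homing receptors 7 were higher and 5 lower, beside 12.3% and 9.49% of all genes tested. In the IL-1 receptor cluster on chromosome 1 (40084692 to 40551707) 5 of 6 genes were called higher. Il1r2, a decoy that binds IL-1 without signalling, stood at 6.42, 2.42 and 3.72 CPM in negative and 48.4, 34.4 and 47.5 CPM in positive libraries (3.37 ± 0.18). The signalling receptor Il1r1 was higher by 1.32 ± 0.23, and the IL-18 receptor chains Il18r1 and Il18rap by 1.12 ± 0.24 and 2.17 ± 0.28. Il18r1 was not called after thinning (0.84, adjusted p = 0.102), and Il1rl2 was not called. Of 10 genes of the IL-1 family of receptors and inhibitors, 6 were higher and 4 were not called. This window was chosen after values were seen, as were Ccr2 and Xcr1, and no test was made of position.

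Transcripts typical of naive and memory-like T cells were lower in the positive compartment. Of 22 listed genes 17 were called lower, beside 9.49% of all genes tested, with a median log2 fold change of -1.43. Tcf7, a transcription factor of resting and stem-like T cells, stood at 259, 253 and 265 CPM in negative and 43.01, 39.6 and 35.7 CPM in positive libraries (-2.71 ± 0.07; adjusted p = 6.69e-27). Ccr7 and S1pr1, which steer entry to and exit from lymph nodes, were lower, at -1.55 ± 0.06 and -1.44 ± 0.09. Dapl1 stood at 24.1, 19.8 and 26.1 CPM in negative and 1.34, 1.07 and 1.70 CPM in positive libraries, a log2 fold change of -4.08 ± 0.22. The survival gene Bcl2 was lower, at -1.43 ± 0.07, the IL-6 receptor gene Il6ra at -1.35 ± 0.12, Id3 at -1.92 ± 0.17, Klf3 at -2.63 ± 0.21 and Igfbp4 at -2.48 ± 0.09. The 5 genes not called were Il7r, Ccr9, Slamf6, Actn1 and Cd27.

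**Figure D4:**
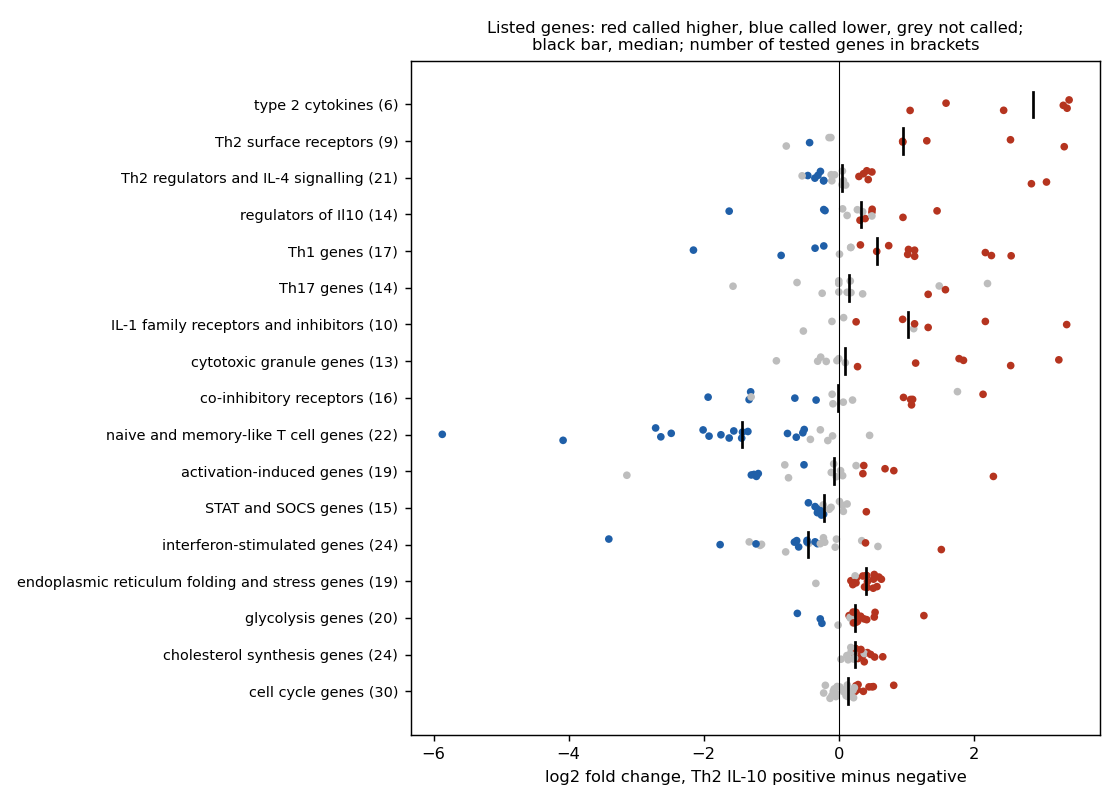
Log2 fold changes, positive minus negative, of the tested genes of 17 lists; red genes were called higher, blue lower and grey not called, the black bar is the list's median, and the number of tested genes is in brackets. Type 2 cytokines lie to the right and naive and memory-like genes to the left. Cell cycle genes lie near 0 (median 0.132), and most folding genes lie slightly to its right (median 0.407).

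Of 16 tested co-inhibitory receptors 5 were called higher and 5 lower, beside 12.3% and 9.49% of all genes tested. Higher calls numbered 5 in every fit that left out 1 library, while those called lower numbered 2 without positive replicate 9, 4 without positive replicate 7 and 3 without each of the other 4 libraries. Havcr2, which encodes TIM-3, stood at 13.9, 12.3 and 12.3 CPM in negative and 55.5, 54.2 and 59.5 CPM in positive libraries (2.14 ± 0.13). Pdcd1 (PD-1), Ctla4, Tigit and Cd200r1 were each near 2-fold higher, by 1.08 ± 0.09, 0.96 ± 0.07, 1.06 ± 0.09 and 1.09 ± 0.13. Btla was lower, at -1.30 ± 0.08, and Lag3 was not called. Of 12 co-stimulatory genes 5 were higher and 3 lower, 1 lower after thinning. The TNF receptor family members Tnfrsf9 (4-1BB), Tnfrsf4 (OX40) and Tnfrsf1b were higher by 1.00 ± 0.07, 0.41 ± 0.07 and 0.97 ± 0.08, and Cd28 by 0.33 ± 0.06. Icos was lower, at 334, 318 and 326 CPM in negative and 287, 257 and 265 CPM in positive libraries (-0.27 ± 0.06).

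Cytokine receptors split evenly, 7 higher and 7 lower of 22 tested, beside 12.3% and 9.49% of all genes tested. Il2ra, the high-affinity chain of the IL-2 receptor, stood at 597, 508 and 578 CPM in negative and 1037, 896 and 1027 CPM in positive libraries (0.81 ± 0.06). Il6st, the shared signalling chain of the IL-6 family, was lower, at -0.91 ± 0.10. Of 15 STAT and SOCS genes 1 was higher and 7 lower. That one was Socs3, a brake on STAT3 signals, which was higher by 0.41 ± 0.08, while Socs2 was lower, at -0.45 ± 0.09. Genes induced within hours of T cell receptor engagement were higher for 5 and lower for 5 of 19, the lower count being 3 without positive replicate 7 or after thinning and 4 without any 1 of the other libraries. Nr4a1 and Cd69, both raised by receptor signals, stood at 98.1 ± 4.55 against 40.02 ± 2.96 CPM and 59.7 ± 7.09 against 26.2 ± 1.41 CPM, negative first, and were lower, at -1.29 ± 0.07 and -1.19 ± 0.12. Myc was lower, at -0.52 ± 0.08. Ier3, an early gene linked to survival, rose from 18.4, 10.1 and 17.6 to 79.5, 65.01 and 81.5 CPM (2.29 ± 0.15). Of 15 integrin and adhesion genes 8 were higher and 3 lower. Cd44, which marks activated cells, stood at 39.7 ± 2.13 and 57.1 ± 8.41 CPM (0.52 ± 0.08), and Itgb3 was lower, at -1.14 ± 0.09.

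Genes of the secretory pathway rose together by small amounts. Of 19 listed genes of folding and stress in the endoplasmic reticulum, 17 were called higher, beside 12.3% of all genes. Their median was 0.41. Xbp1, a transcription factor of secretory cells, stood at 401, 393 and 393 CPM in negative and 567, 607 and 618 CPM in positive libraries (0.59 ± 0.07). Hspa5, the chaperone BiP, stood at 1066, 1004 and 1077 and 1458, 1394 and 1370.3 CPM (0.42 ± 0.05). The chaperones Hsp90b1 and Calr and the disulphide isomerase Pdia6 were higher by 0.51 ± 0.06, 0.51 ± 0.07 and 0.63 ± 0.07, and the secreted factor Manf by 0.57 ± 0.07. Ddit3 and Dnajb9 were not called. Because these genes moved together, their promoters were searched on both strands for the ER stress response element, CCAAT followed after 9 bases by CCACG, through which folding stress is known to raise such genes. It was found within 250 bases before the start of 6 of the 17 genes in the RefSeq table (35.3%), against 33 of all 27025 promoters (0.122%). The 17 were taken from a list of known folding and stress genes and not by their values, so this share describes the list and not these data. The stretches around each element are printed, with the element in capitals on whichever strand it lay, from GRCm38.p6.
Hspa5 (chr2:34772020-34772048, plus strand): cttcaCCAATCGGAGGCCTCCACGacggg
Hsp90b1 (chr10:86705513-86705676, minus strand): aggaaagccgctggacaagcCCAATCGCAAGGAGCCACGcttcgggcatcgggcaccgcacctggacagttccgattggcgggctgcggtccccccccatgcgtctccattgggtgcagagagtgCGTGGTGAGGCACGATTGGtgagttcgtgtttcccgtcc
Pdia6 (chr12:17266471-17266529, plus strand): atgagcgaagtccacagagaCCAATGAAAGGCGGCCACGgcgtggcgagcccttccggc
Calr (chr8:84847055-84847113, minus strand): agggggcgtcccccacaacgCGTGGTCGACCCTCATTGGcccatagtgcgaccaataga
Canx (chr11:50325780-50325838, minus strand): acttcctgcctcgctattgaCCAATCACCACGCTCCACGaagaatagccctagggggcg
Creld2 (chr15:88819500-88819558, plus strand): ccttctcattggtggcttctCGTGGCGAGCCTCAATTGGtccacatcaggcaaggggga
Hsp90b1 held 2 such elements on opposite strands. Whether a factor bound any of them was not measured.

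Metabolic genes shifted modestly. Of 20 tested glycolysis genes 13 were higher and 3 lower, beside 12.3% and 9.49% of all genes tested, with a median of 0.24. The glucose transporter Slc2a3 stood at 179, 169.6 and 166 CPM in negative and 449, 391 and 392 CPM in positive libraries (1.26 ± 0.09), more than in the other cultures on average by 0.94 ± 0.10 (adjusted p = 1.4e-09). Of the 20 glycolysis genes, 14 were called below the other cultures' mean difference and 1 above it, beside 12.3% and 8.44% of all genes tested. The enzyme genes Pkm, Gapdh, Aldoa and Ldha were among the 10 genes with the largest gain in CPM, and their log2 fold changes were 0.32 ± 0.05, 0.25 ± 0.05, 0.37 ± 0.06 and 0.21 ± 0.06. The lactate exporter Slc16a3 was higher by 0.54 ± 0.06. Of 24 tested cholesterol synthesis genes 12 were higher and 12 were not called, with a median of 0.24, Lss leading the named ones at 0.65 ± 0.08. Of these 24, 17 were called below the other cultures' mean difference and 0 above it. Metallothioneins and zinc transporters gave 4 higher and 1 lower of 13, the 1 lower being lost with no filter, after thinning and without any 1 of the libraries other than positive replicate 7. Mt1, which binds zinc, stood at 3.40, 4.75 and 4.23 CPM in negative and 19.7, 17.1 and 17.9 CPM in positive libraries (2.14 ± 0.17), and Mt3 was higher by 2.64 ± 0.31. Of 24 tested interferon-stimulated genes 10 were called lower, 2 higher and 12 in neither direction, with a median of -0.46. Usp18, a brake on interferon signalling, stood at 3.60, 6.01 and 3.55 CPM in negative and 0.334, 0.413 and 0.448 CPM in positive libraries (-3.40 ± 0.29, and -4.45 after thinning). Irf9 and Zbp1 were lower, at -0.62 ± 0.08 and -0.66 ± 0.08, and Mx1 was higher by 1.52 ± 0.32.

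Cell cycle genes differed by small amounts between the Th2 compartments. Of 30 listed genes 9 were called higher, beside 12.3% of all genes tested, and 21 were not called, with a median of 0.13. Alternative fits called 6 to 13 higher and up to 3 lower, the 13 and the 3 with the 6 Th2 libraries alone. Ccnb1 and Cdk1, which drive entry into mitosis, were higher by 0.51 ± 0.08 and 0.49 ± 0.09, and Aurka, a mitotic kinase, by 0.81 ± 0.11. The list's genes summed to 9676 to 9806 CPM in positive and 8759 to 9516 CPM in negative libraries. Against the mean difference of the other 4 cultures, all 30 were called lower in Th2, beside 12.3% of all genes tested. That mean joins unlike cultures: for Ccnb2 and Ccnf, given below, the difference was smallest in pTh17 and largest in Tr1.

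Genes of the Th17 and regulatory T cell fates were also listed. Over all genes tested, 12.3% were called higher and 9.49% lower. Of 14 Th17 genes 2 were higher, near that share of all genes, and 12 were not called. Il21, a helper cytokine, stood at 6.42, 4.56 and 4.06 CPM in negative and 17.7, 12.5 and 14.5 CPM in positive libraries (1.58 ± 0.14), and Il1r1 was the other. The Th17 cytokine genes Il17a and Il17f averaged at most 0.0324 CPM in either compartment. Of 7 tested regulatory T cell genes 2 were higher and 2 lower. Foxp3 averaged 0.654 CPM in negative and 0.429 CPM in positive libraries, which were sorted as Foxp3-GFP-. Nrp1 and Lrrc32 were lower, at -0.80 ± 0.12 and -1.47 ± 0.18. Gpr83 was higher by 0.97 ± 0.20, and the call of Folr4 (0.17 ± 0.06) was lost in 8 of 13 alternative settings, among them each of the 6 that leave out a library (adjusted p up to 0.143).

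Among genes ranked by fold change, with no overlap and at least 5 CPM in the higher compartment, several stood outside these lists. St3gal6, a sialyltransferase that caps glycans bound by selectins, stood at 9.62, 9.02 and 8.89 CPM in negative and 73.2, 67.2 and 72.9 CPM in positive libraries (2.95 ± 0.14). The membrane protease Bace2 stood at 3.50, 3.49 and 3.55 and 28.1, 23.4 and 25.2 CPM (2.86 ± 0.27). Lhfpl1, Perp, Mmp10, Serpine2, S100a4, Tmem40 and Smim3 were also among the 20 highest, between 2.47 and 3.39 on the log2 scale, all from at most 3.35 CPM in negative libraries. On the lower side, Pdlim4, a cytoskeletal adaptor, stood at 63.5, 53.6 and 68.6 CPM in negative and 8.77, 5.95 and 6.45 CPM in positive libraries (-3.13 ± 0.19). Tlr1, a sensor of bacterial lipoproteins, stood at 50.4, 39.3 and 44.4 and 6.35, 7.60 and 6.36 CPM (-2.72 ± 0.11). Txk, a kinase of T cell receptor signalling, and Synpo, an actin-binding protein, were lower, at -2.76 ± 0.18 and -2.83 ± 0.21. Ncoa7, Selp, Aff3, Hectd2, Ctss, Atf3, Card6, Aqp3 and Ncf1 were also among the 20 lowest, between -2.40 and -1.91.

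By the change in mean CPM, the largest gains were those of Pkm, Gapdh, Actg1, Ly6a, Il10, Ldha, Thy1, Aldoa, Lcp1 and Tuba1b. Ly6a, the surface protein Sca-1, stood at 1333, 1266 and 1189 CPM in negative and 2327, 2258 and 2018 CPM in positive libraries (0.80 ± 0.05). Among the 10 largest losses were those of Eef1a1, Myo6, Kcnq1ot1, Rplp0, Rpsa, Rpl3, Il4ra and Ms4a6b. Kcnq1ot1, a long RNA antisense to Kcnq1 whose reads cannot be assigned by strand here, stood at 1768, 2154 and 1670.5 and 1101, 1166 and 1134 CPM. Ms4a6b, a membrane protein of T cells, stood at 596, 560.4 and 581 CPM in negative and 169, 178 and 158 CPM in positive libraries (-1.78 ± 0.06). Translation genes on the loss side moved by small steps, Eef1a1 by -0.23 ± 0.05 and Rplp0 by -0.23 ± 0.06, in the same libraries in which Rn45s took a larger share of counts in the negative compartment.

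Where did Th2 differ from the other cultures? The Th2 difference departed from the mean difference of Th1, Th17, pTh17 and Tr1 for 2612 genes (20.7% of those tested), above it for 1064 (8.44%) and below it for 1548 (12.3%). Of the 1053 genes called in both comparisons, 413 had the opposite sign to the mean of the others, 334 the same sign and a larger size, and 306 the same sign and a smaller size. Cxcr3, a chemokine receptor of Th1 cells, stood at 17.2, 20.7 and 15.99 CPM in negative and 34.99, 41.5 and 33.5 CPM in positive Th2 libraries. Its Th2 log2 fold change of 1.03 ± 0.12 set against -3.35 in Th1, 0.11 in Th17, -0.91 in pTh17 and -0.05 in Tr1 (difference 2.08 ± 0.15; adjusted p = 6.79e-14). St3gal6 was higher by 2.95 in Th2 and by 1.72, 0.13, 1.01 and 0.19 in Th1, Th17, pTh17 and Tr1 (difference 2.19 ± 0.16). Abca1, a cholesterol exporter, stood at 4.86, 4.66 and 4.23 CPM in negative and 19.04, 10.7 and 11.8 CPM in positive Th2 libraries (1.60 ± 0.22), against 0.76, -2.20, 0.72 and -1.52 in the same order. Lama5, a laminin chain, rose in Th2 by 1.15 ± 0.10 and gave -0.56, -1.19, -0.06 and -1.10 elsewhere. Wls, which carries Wnt proteins to the surface, rose by 1.83 ± 0.25, against 0.20, -1.09, 0.59 and -0.29.

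On the lower side, Cd83, a surface protein of activated lymphocytes, stood at 16.8, 22.4 and 27.8 CPM in negative and 4.93, 7.43 and 3.40 CPM in positive Th2 libraries (-2.08 ± 0.26). In the other cultures it was 1.24, 1.56, 5.59 and 2.80 in Th1, Th17, pTh17 and Tr1, and the difference was -4.88 ± 0.45 (adjusted p = 4.25e-11). The channel gene Trpm6 was lower in Th2, at -1.13 ± 0.21 and gave 1.73, 2.20, 1.69 and 0.29 elsewhere, a difference of -2.61 ± 0.71 that was not called without Tr1 positive replicate 17. Of the 12 genes furthest below the other cultures by the naming rule, 7 (Bub1, Kif4, Nusap1, Cep55, Ccnb2, Cdc25c and Ccnf) serve mitosis or the cell cycle. Ccnb2 stood at 219, 219.8 and 234 CPM in negative and 216, 213 and 199 CPM in positive Th2 libraries and was not called (-0.10 ± 0.08, adjusted p = 0.414). Its differences in Th1, Th17, pTh17 and Tr1 were 0.92, 3.02, 0.31 and 5.67. Ccnf was higher in Th2 by 0.31 ± 0.08, against 1.76, 3.72, 0.52 and 5.47. Il2ra, Bhlhe40 and Havcr2 kept the sign of the other cultures' mean and were smaller in Th2, the Th2 difference minus that mean being -0.84 ± 0.07, -1.15 ± 0.10 and -2.14 ± 0.53.

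**Figure D5:**
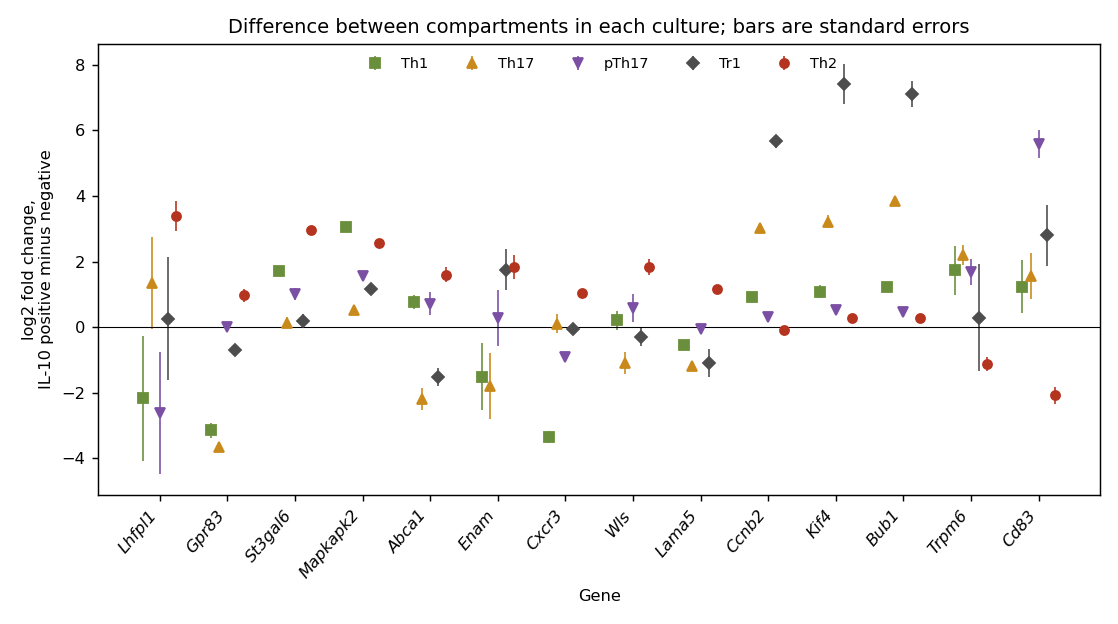
Log2 fold change, positive minus negative, of 14 genes in each culture (Th2 as red circles), with standard errors as bars. Th2 lies above every other culture for Lhfpl1, Gpr83, St3gal6, Abca1, Cxcr3, Wls and Lama5 and below every other for the 5 genes from Ccnb2 to Cd83, while Enam lies within the error of Tr1 and Mapkapk2 was higher in Th1.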

How the data were processed

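RNA-seq of SMART-Seq2 type, which does not mark strand and carries no molecular identifiers, was made from 2000 sorted cells per library, per the labels' protocols. Per the submitters' processing notes, RSEM and the mouse build mm10 were used, and the sources used here give no other step. The authors deposited 1 table per library with gene length, effective length, the expected count, TPM and FPKM per gene. Expected counts were rounded to whole numbers and tested. TPM served only to compare levels between genes, and the deposited lengths and FPKM were not used.

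Libraries were grouped by title, with 3 replicates per group. All 30 entered 1 edgeR 4.0.16 quasi-likelihood fit (R 4.3.3) with a mean per group, after edgeR's filter on low counts and TMM scaling. Contrasts were Th2 positive minus negative, that difference minus the mean difference of the other 4 cultures, and Th2 negative minus the other negative groups. Genes were called at a Benjamini-Hochberg adjusted p under 0.05. The scripts were tested on simulated data. Median-of-ratios size factors, DESeq2 1.42.0, no filter, the 6 Th2 libraries alone, a replicate block, thinning to the lowest total and leaving out each library were alternatives, and leaving out Rn45s was added after seeing the data.

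Genes were named by rule: Thy1 and Il10, the 20 highest and 20 lowest called log2 fold changes without overlap and with at least 5 CPM in the higher group, the 10 largest CPM changes each way, 12 genes each way in the contrast with other cultures, all members of the type 2 cytokine, Th2, Th1, Th17 and Il10 regulator lists, and up to 6 members of each other list by p-value. Other genes named were chosen after their values were seen. The comparison and its gene lists were chosen with earlier results of these data known. Genes that overlap, lie antisense or have near-identical copies are uncertain. Promoter sequences and coordinates are from RefSeq's GRCm38.p6. Some genes that the naming rule selects are not reported here.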

Additional observations from a re-analysis of the deposited data

Results flagged for a closer look

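For 25 genes the Th2 difference between IL-10 positive and negative cells departed from the mean difference of Th1, Th17, pTh17 and Tr1. This interaction contrast (Th2 difference minus that mean, log2 scale) used edgeR's quasi-likelihood test and a Benjamini-Hochberg adjusted p under 0.05. The mean joins unlike cultures, so a gene called here can still be alike in Th2 and a single other culture, as Enam was in Tr1. The 25 genes are Il10, at -1.97, and the 12 genes furthest above and 12 furthest below by the naming rule. Above the mean of the other cultures were Lhfpl1 at 4.19, Gpr83 at 2.84, Ddc at 2.75, St3gal6 at 2.19, Abca1 at 2.16, Enam at 2.15, Cxcr3 at 2.08, Wls at 1.98, Nucb2 at 1.95, Nckap5 at 1.91, Lama5 at 1.88 and Kif1b at 1.84. Below that mean were Cd83 at -4.88, Bcar3 at -3.21, Rap1gap2 at -2.89, Bub1 at -2.88, Kif4 at -2.79, Nusap1 at -2.74, Cep55 at -2.64, Trpm6 at -2.61, Hemgn at -2.59, Ccnb2 at -2.58, Cdc25c at -2.56 and Ccnf at -2.56.

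The call was kept in all 36 alternatives for 20 of these genes. It was lost for Lhfpl1 after thinning and without Th1 negative replicate 6, Th17 negative replicate 10, pTh17 negative replicate 13 or Tr1 negative replicate 16, with values from 2.75 to 4.82 over the alternatives. Nckap5 lost it in 6 alternatives, with values from 1.38 to 2.11: after thinning and without Th2 positive replicate 8, Th1 negative replicate 6, Th17 negative replicate 11, pTh17 negative replicate 14 or Tr1 negative replicate 16. Enam lost it after thinning (adjusted p = 0.0605), Bcar3 without Th1 positive replicate 4 and Trpm6 without Tr1 positive replicate 17.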

How the results depend on the processing

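The counts of called genes, the Il10 difference and the Il10 level of the Th2 negative libraries stayed within the limits set for each in all 136 recomputed values. Those limits are wide for counts: a fall from 2752 to 2075 called genes lies within them. For single lists, 44 recomputed counts moved beyond their limit and 762 did not. For named genes, 27 recomputed values lost a call, 1 gained a call and 1997 were unchanged. Genes called between the Th2 compartments numbered 2778 with median-of-ratios size factors, 2693 with DESeq2, 2562 with no filter, 3274 with the 6 Th2 libraries alone, 2075 after thinning and 2787 without Rn45s, and leaving out 1 library gave 2143 to 2422, against 2752. For the difference from the other cultures, leaving out 1 library gave 2108 to 2688 calls, against 2612. Il10 stayed between 3.54 and 3.68. The fit on the 6 libraries alone was not run for comparisons between cultures. With a replicate block 2777 genes were called between the Th2 compartments and 2655 in the difference from the other cultures. Same-numbered libraries had correlations of deviations of 0.017, 0.025 and 0.028, all under the 0.1 required, so the main fit did not pair them. Each Th2 library still correlated best with its own number, and the titles give each number to 1 positive and 1 negative library of a culture. Correlations this small cannot settle whether the numbers mark pairs, and the labels do not say. Counts without molecular identifiers limit what genes under 1 CPM can show, of which 5.30% were called.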

Other observations

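Gene families outside the lists gave these counts between the Th2 compartments. They were chosen after their values were seen, so their counts are a description. Of 83 tested ribosomal protein genes (Rpl and Rps), 57 were called lower in IL-10 positive cells and 1 higher, against 9.49% and 12.3% of all genes, with a median log2 fold change of -0.22. The negative libraries also carried more Rn45s, 10.1% ± 0.56 of scaled counts against 7.44% ± 0.83 (SD, n = 3). Leaving Rn45s out of the counts gave 54 ribosomal protein genes lower and 1 higher, with a median of -0.213. Any other link between Rn45s and these genes was not tested. Of 7 tested Ms4a genes, membrane proteins of lymphocytes, 5 were lower, with a median of -1.49.

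The next counts stand beside 12.3% of all genes tested called higher and 9.49% called lower. Annexin genes, whose products bind membranes in the presence of calcium, were higher for 6 of 9, with a median of 0.56. Tubulin genes were higher for 7 and lower for 1 of 13. Sec and Tmed genes, which serve protein transport out of the endoplasmic reticulum, were higher for 15 of 32, with a median of 0.24, beside the 17 of 19 folding genes. Gbp genes, induced by interferon, were higher for 2 and lower for 4 of 11.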
